A study of Mus musculus with 8 samples.

Results

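The nuclear-coded subunits of the oxidative phosphorylation (OXPHOS) complexes were examined in fasted liver with and without pyruvate carboxylase. Members were the protein-coding genes of GENCODE M21 with symbols that name a subunit of complex I (Nduf), complex III (Uqcr and Cyc1), complex IV (Cox4 to Cox8) or ATP synthase, which is complex V (Atp5). The rule reads gene symbols and annotation, not measured values. Of 83 genes that matched, 82 had a row among the 35275 genes of the count table, and a second entry for Atp5o had none. They comprise 36 genes of complex I, 9 of complex III, 20 of complex IV and 17 of complex V. Ndufa4 and its paralog Ndufa4l2 were placed in complex IV, where the protein is found, together with Cox7a2l. Liver RNA came from 4 male Pcx L-/- mice and 4 male Pcx f/f littermates on a C57BL/6 background, all 9 weeks old and fasted for 24 h, with 1 library per mouse. Pcx L-/- mice carry the floxed Pcx alleles and Albumin-Cre, which is active in hepatocytes, so the other cells of the liver keep the gene. Pcx f/f mice carry the same floxed alleles and are called WT in the labels. Pyruvate carboxylase makes oxaloacetate from pyruvate in the mitochondrial matrix, and the comparison asks how the fasted liver responds to its loss. Pcx itself averaged 681 normalized counts in Pcx L-/- liver and 18936 in control liver (log2 fold change -4.80), and was lower in every Pcx L-/- mouse than in every control.

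Complexes I and II pass electrons from NADH and succinate to ubiquinone, complex III passes them on to cytochrome c, and complex IV passes them to oxygen. Complexes I, III and IV pump protons across the inner mitochondrial membrane, and ATP synthase uses the gradient to make ATP. The chain is assembled from nuclear and mitochondrial gene products. A few nuclear subunits carry the redox centers or the catalytic sites, and most others are small accessory proteins. Complex IV has subunits with tissue isoforms, one set typical of liver and the other of heart, skeletal muscle or testis. In the fasted liver the chain reoxidizes the NADH and reduced flavoproteins of fatty acid oxidation and supplies ATP for gluconeogenesis.

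Nuclear OXPHOS genes are known as targets of the transcription factor NRF1, and the bases before their start sites were searched for its core sequence, GCGCATGC, on both strands. RefSeq (GRCm38.p6) gave promoter windows for 66 of the 82 members, in 71 entries, and the 250 bases before each start were read. The core occurred in 7 of the 71 entries (9.86%) and in 2.26% of all 32851 entries. Member windows were also richer in G and C, with a median of 56.0% against 52.4% over all entries. The part of base composition in this difference was not tested. It lay in the windows of Ndufa6, Ndufa8, Ndufa11, Cox6a1, Atp5g2, Atp5k and Atp5l. Stretches of at most 30 bases around it are shown for 5 of these genes in the order of their chromosomes, 5′ to 3′ on the strand of the gene, with every base covered by a match in capitals.
Ndufa8 (chr2:36049339-36049357, minus strand): tcgctggagacGCATGCGC
Cox6a1 (chr5:115349101-115349130, minus strand): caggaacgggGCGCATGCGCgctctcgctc
Atp5k (chr5:108434430-108434459, minus strand): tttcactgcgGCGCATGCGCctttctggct
Atp5g2 (chr15:102671070-102671099, minus strand): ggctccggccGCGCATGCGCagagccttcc
Ndufa11 (chr17:56717692-56717721, plus strand): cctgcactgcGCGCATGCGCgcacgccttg
In Cox6a1, Atp5k, Atp5g2 and Ndufa11 the letters form a palindrome of 10 bases, so both strands match. The match began 8 bases before the start of Ndufa8, 42 before that of Atp5g2, 50 before Atp5k, 60 before Ndufa11 and 162 before Cox6a1. Starts are those of RefSeq, and in GENCODE M21 the stretches of Ndufa8, Cox6a1, Atp5k and Atp5g2 overlap an annotated exon. None of the 7 genes passed the test between genotypes, where 7.69% of members and 27.6% of all genes passed. Only 4 of the called members had a promoter entry, so the others could not match. The log2 fold changes ran from -0.31 (Ndufa8, adjusted p = 0.0503) to 0.09 (Atp5g2, adjusted p = 0.659). Ndufa8 passed as lower in other fits described below, among them the DESeq2 Wald test (-0.32, adjusted p = 0.0284) and the gene length offset (-0.50, adjusted p = 0.00975). Other letters were rarer among members. CCGGAAGT, bound by ETS factors such as GABP, was in 4.23% of member entries and 2.88% of all, and AAGATGGC, bound by YY1, in 1.41% and 1.56%. TCAAGGTC, bound by estrogen-related receptors, was in 1.41% and 0.935%. TGATGNAA, the C/EBP-ATF element of stress-induced genes, was in none of the 71 entries and in 3.45% of all.

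Libraries held 12016242 to 20023108 reads on genes, and 1 control library stood apart from the rest. Control replicate 4 had the fewest reads, and members received 0.794% of its reads, against 1.11% to 1.17% in the other 3 controls and 1.10% to 1.16% in Pcx L-/- liver. It held the lowest normalized count of all 8 libraries for 46 of the 78 members tested. Relative to each gene's mean over the 8 libraries, the median member lay at -0.38 (log2) in this library. In control replicates 1 to 3 it lay at 0.12, 0.20 and 0.19. Short genes as a class were low in the same library. When the genes tested were ranked by length and cut into 5 classes of equal size, the shortest class, up to 1721 bases, had a median of -0.32 and the longest class a median of 0.26. Of the 78 members, 63 belong to the shortest class. Pcx L-/- replicate 1 lay at 0.17, near the controls, and replicates 2 to 4 lay at -0.19, -0.16 and -0.04. It also held the most red blood cell RNA, with a sum of 69340 normalized counts over 6 marker genes against 4749 to 16720 in the other 7 libraries. Values without these 2 libraries stand beside the named members whose calls they change. Both stood out by the members' own values, 1 as a low control and 1 as a high Pcx L-/- mouse. Leaving them out therefore tends to enlarge falls, and such fits describe dependence on a library and give no support to a call. The part of gene length or red blood cell RNA in the results was not tested.

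**Figure D1:**
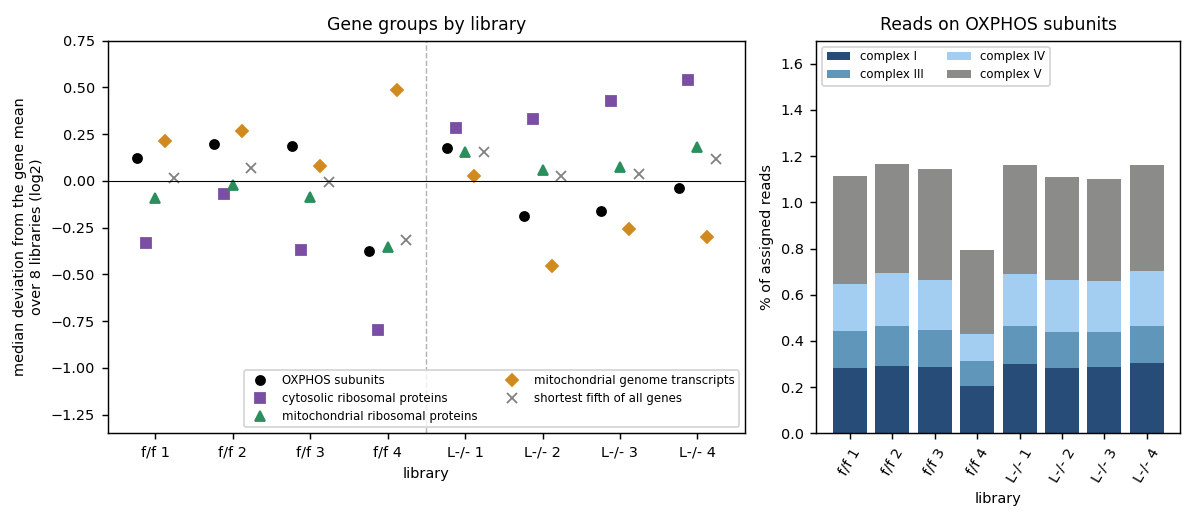
Left, the median deviation of each gene group from its genes' means over the 8 libraries (log2, vertical axis) by library, with OXPHOS subunits as black circles. Right, the percentage of assigned reads on members, stacked by complex. Control replicate 4 is lowest in both panels for OXPHOS subunits, at -0.38 and 0.794%.

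Few subunits passed the test between genotypes. Of the 78 members that passed the filter on low counts, 6 (7.69%) passed the edgeR quasi-likelihood test at an adjusted p of 0.05, against 27.6% of all 13168 genes tested. Cox6a2, Cox7a2l and Atp5s were higher in Pcx L-/- liver, which is 3 of 78 beside 14.1% of all genes. Ndufb8, Uqcrfs1 and Atp5a1 were lower, which is 3 of 78 beside 13.5%. All values here are of RNA. By Western blot the paper reports no change in the mitochondrial proteins it probed, among them Ndufb8, Atp5a, Uqcrc2 and Sdhb. The legend of those blots does not state whether the mice were fasted. The 4 mice of one genotype all lay above the other for 3 members and all below for 5, where 27.6% of all genes separated in this way, 15.1% upward and 12.5% downward. The 5 below were Ndufa8, Ndufa9, Ndufb2, Ndufb8 and Atp5a1, of which Ndufa8 and Ndufa9 are named after their values were seen. The 95% interval of the fold change stayed within 2-fold in either direction for 71 of the 78 members, beside 71.8% of all genes.

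The direction of most subunits depended on how libraries were scaled. With TMM factors, edgeR's library scaling used throughout, the log2 fold change was below 0 for 58 of 78 members, beside 50.6% of all genes, but for 16 of 78 when libraries were scaled by total reads and 14 of 78 on log2(FPKM + 1). With TMM factors the members' median was -0.12 against -0.01 over all genes. It was -0.23 without control replicate 4, -0.22 without Pcx L-/- replicate 1, -0.06 without control replicate 2 and -0.08 without Pcx L-/- replicate 2. When libraries were scaled by their total reads alone, the members' median was 0.14 and that of all genes 0.28. The members' median minus that of all genes was -0.12 with TMM factors and ran from -0.30 (both libraries left out) to -0.01 (limma on log2(FPKM + 1)) over 21 alternatives. By the numbers in the labels the mice fall into a 500 and an 800 series, with 2 and 2 controls and 1 and 3 Pcx L-/- mice. The 500-series Pcx L-/- mouse is replicate 1, and control replicate 4 is of the 800 series. With the series as a covariate the members' median was -0.05, with 3 members higher and 3 lower. Albumin and 5 other hepatocyte markers summed to between 922900 and 1411000 normalized counts in Pcx L-/- liver and between 1617000 and 1989000 in control liver, with 2 of 6 called lower. In whole tissue, the share of hepatocytes and the level of these transcripts per hepatocyte cannot be told apart. Marker sums of macrophages (4565 to 5597 in Pcx L-/- and 4033 to 5633 in control liver), endothelial cells (4261 to 5115 and 4784 to 6503) and stellate cells (2664 to 5180 and 3921 to 6008) overlapped. So did those of cholangiocytes (310 to 391 and 343 to 611) and of T and B cells (29.0 to 59.5 and 15.3 to 58.3). Of these markers 1 of macrophages was called higher and 1 of cholangiocytes lower.

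How many subunits passed as lower depended on the 2 libraries described above. Without control replicate 4, 14 members were lower, beside 13.0% of all genes. Without Pcx L-/- replicate 1, 13 were lower, beside 17.8%. With both left out, a setting chosen after the data were seen, 46 of 78 were lower (59.0%), beside 19.6% of all genes, and the members' median was -0.29. Fits without Pcx L-/- replicate 1 keep only 800-series Pcx L-/- mice, beside controls of both series. In them genotype and mouse series cannot be fully told apart. An offset for gene length, also chosen after the data were seen, left all 8 libraries in and gave 30 lower members beside 14.6%. Scaling by total reads gave 0 lower members by edgeR, beside 6.61% of all genes, and 4 higher, beside 29.7%. At an unadjusted p under 0.05 the fit with all libraries had 3 members higher and 8 lower, beside 19.7% and 19.3% of all genes. DESeq2 called 3 higher and 6 lower, beside 13.0% and 13.4%. Cox6a2, Cox7a2l and Atp5s were called higher in each of these fits.

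**Figure D2:**
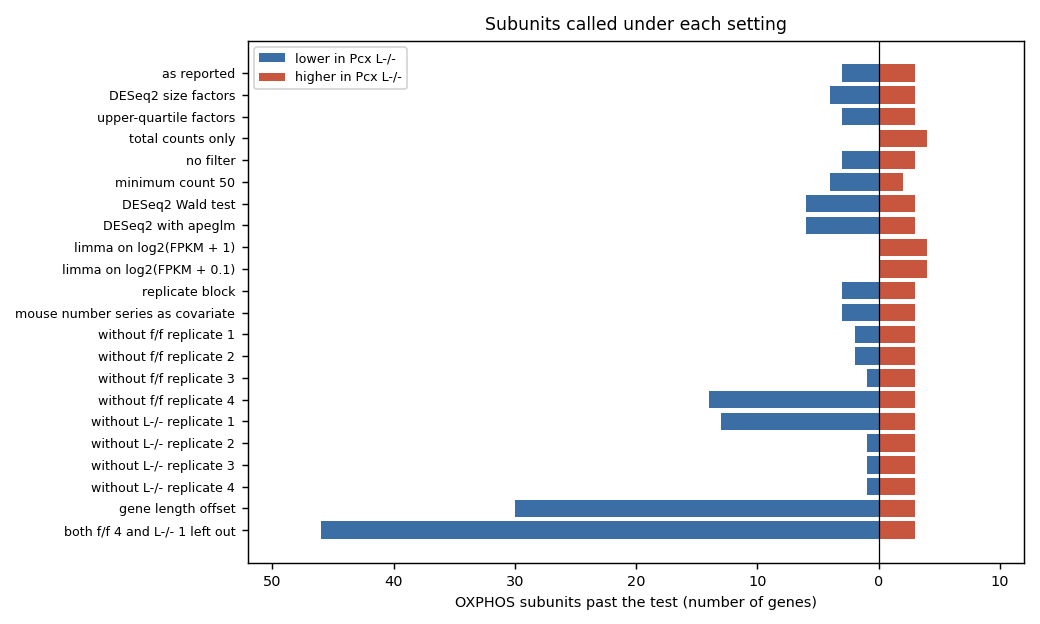
Number of OXPHOS subunits past the test (horizontal axis, genes), with those lower in Pcx L-/- liver to the left and those higher to the right, for the fit as reported and 21 alternatives (vertical axis). The number higher stays between 2 and 4, and the number lower runs from 0 to 46.

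**Figure D3:**
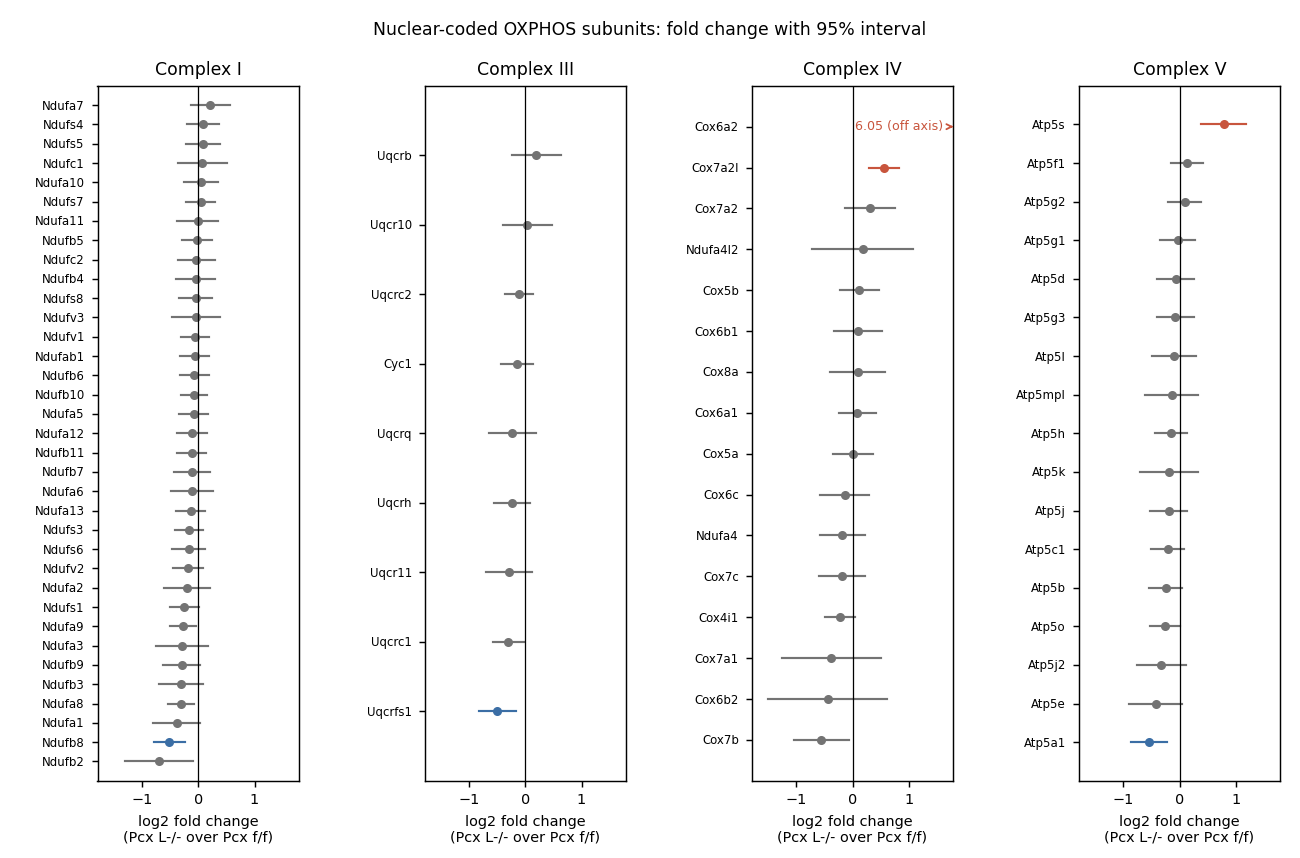
Log2 fold change of the members tested and reported here (points, Pcx L-/- over Pcx f/f) with its 95% interval (lines), by complex. Red marks members called higher, blue those called lower, and grey the rest. Cox6a2, at 6.05, lies off the axis.

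Complex I oxidizes NADH with a flavin and a row of iron-sulfur clusters held by its core subunits. None of its 7 nuclear core subunits passed the test by edgeR or by DESeq2, or had an unadjusted p under 0.05 (0 of 7). Of all genes, 27.6% passed by edgeR, and such an unadjusted p was reached upward by 19.7% and downward by 19.3%. Ndufv1, which holds the flavin and binds NADH, counted 3291, 2814, 3194 and 3208 in control liver and 3424, 2938, 2709 and 2983 in Pcx L-/- liver (log2 fold change -0.05, SE 0.11, adjusted p = 0.768). The genotypes overlapped, with Pcx L-/- mice at both ends of the range. Ndufs1, the largest subunit of the NADH-oxidizing arm, gave 2072, 2017, 2045 and 2264 in control liver and 2098, 1636, 1744 and 1586 in Pcx L-/- liver (log2 fold change -0.25, SE 0.11, adjusted p = 0.132). Its lowest 3 values were Pcx L-/- mice, and Pcx L-/- replicate 1 lay among the controls. Further core subunits had log2 fold changes of -0.19 for Ndufv2, -0.17 for Ndufs3, 0.04 for Ndufs7 and -0.05 for Ndufs8, with adjusted p from 0.272 to 0.823. Without Pcx L-/- replicate 1, Ndufs1 (-0.34) passed as lower, and with both doubtful libraries left out so did Ndufs3 (-0.29), Ndufs8 (-0.23) and Ndufv2 (-0.32).

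Of the 29 accessory subunits of complex I, 1 was lower and 0 were higher by edgeR, beside 13.5% and 14.1% of all genes. An unadjusted p under 0.05 gave 4 lower and 0 higher, beside 19.3% and 19.7%. DESeq2 called 3 subunits of the complex lower and 0 higher, beside 13.4% and 13.0%. Ndufb8, a membrane-arm subunit that is unstable when complex I is not assembled, lies at chr19:44548572-44555440 on the minus strand. Its normalized counts were 609.9, 772, 626 and 629.6 in control liver and 549, 423, 398 and 469 in Pcx L-/- liver. Every Pcx L-/- mouse lay below every control, and control replicate 2 was the highest. Ndufb8 fell (log2 fold change -0.52, SE 0.13, adjusted p = 0.0124) and passed with each mouse left out in turn, but not when scaled by total reads (-0.25, adjusted p = 0.153) or by limma on log2(FPKM + 1) (-0.23, adjusted p = 0.158). Ndufb2, a small membrane-arm subunit, had the lowest log2 fold change of the complex and few reads, with 50.1, 43.3, 58.0 and 50.9 in control liver and 41.5, 19.1, 40.4 and 23.8 in Pcx L-/- liver (log2 fold change -0.70, SE 0.28, adjusted p = 0.084). Its groups did not overlap, and it passed only without Pcx L-/- replicate 1 (-0.86) or with both libraries left out. Ndufa1, an X-linked subunit needed for assembly of the membrane arm, gave 1126, 1050, 1132 and 592 in control liver and 885, 692, 655 and 760.1 in Pcx L-/- liver (log2 fold change -0.39, SE 0.19, adjusted p = 0.154). Control replicate 4 was the lowest of all 8, and the other 3 controls lay above every Pcx L-/- mouse. Without that library Ndufa1 passed as lower (-0.56), as did Ndufb9 (-0.41 against -0.30 with all mice), the most abundant member of the complex at 262 FPKM. Ndufa7 (0.21), Ndufs4 (0.09) and Ndufs5 (0.08), all accessory subunits, had the highest log2 fold changes, and none passed. Ndufs4 counted 1039, 1055, 987 and 725 in control liver and 1129, 955, 916 and 1045 in Pcx L-/- liver, so the genotypes overlapped. Over all 36 members of complex I the median log2 fold change was -0.12, with 30 below 0, and 0.15 when scaled by total reads.

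Complex III moves electrons from ubiquinol to cytochrome c through the Rieske iron-sulfur protein, coded by Uqcrfs1, and cytochrome c1, coded by Cyc1. Uqcrfs1, at chr13:30540308-30545362 on the minus strand, had normalized counts of 4457, 4611, 4538 and 3606 in control liver and 3913, 2732, 2636 and 2876 in Pcx L-/- liver. Pcx L-/- replicates 2 to 4 lay below every control, and replicate 1 lay above control replicate 4. Uqcrfs1 fell (log2 fold change -0.50, SE 0.15, adjusted p = 0.0295). By edgeR 1 of 9 members was lower and 0 were higher, beside 13.5% and 14.1% of all genes. DESeq2 called 2 lower and 0 higher, beside 13.4% and 13.0%. An unadjusted p under 0.05 gave 2 lower and 0 higher, beside 19.3% and 19.7%. The call of Uqcrfs1 is lost when any of control replicates 1, 2 and 3 (adjusted p = 0.0716, 0.0647 and 0.0776) or Pcx L-/- replicates 2, 3 and 4 (0.0889, 0.0940 and 0.0908) is left out, with log2 fold changes from -0.49 to -0.44, and when scaled by total reads (-0.24, adjusted p = 0.192). Without the 2 doubtful libraries Uqcrfs1 was at -0.71 (adjusted p = 6.77e-05). That fit adds no support, since both libraries stood out by the members' own values. Cyc1 counted 3898, 3912, 4052 and 3104 in control liver and 3914, 3166, 3035 and 3302 in Pcx L-/- liver (log2 fold change -0.16, SE 0.13, adjusted p = 0.399), and Pcx L-/- replicate 1 lay level with controls 1 to 3. It passed as lower with both doubtful libraries left out (-0.31, adjusted p = 0.0125) and with the gene length offset (-0.30, adjusted p = 0.0476). Uqcrc1, a core protein on the matrix side, had 5299, 4863, 4992 and 4497 and 4733, 3607, 3697 and 3863 (log2 fold change -0.31, SE 0.12, adjusted p = 0.0917). It passed as lower in 5 of 21 alternatives, which were both forms of DESeq2 (Wald test -0.31, adjusted p = 0.0398), the gene length offset (-0.41), and the fits without Pcx L-/- replicate 1 (-0.40) or both libraries (-0.43). Uqcrc2, the other core protein, differed less (log2 fold change -0.12, SE 0.11, adjusted p = 0.477). The small subunits Uqcr11 (-0.29), Uqcr10 (0.03) and Uqcrb (0.19) did not pass, and Uqcr11 did without control replicate 4 (-0.46). Levels within the complex were close, between 114 and 194 FPKM, and the median log2 fold change was -0.23, or 0.03 when scaled by total reads.

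**Figure D4:**
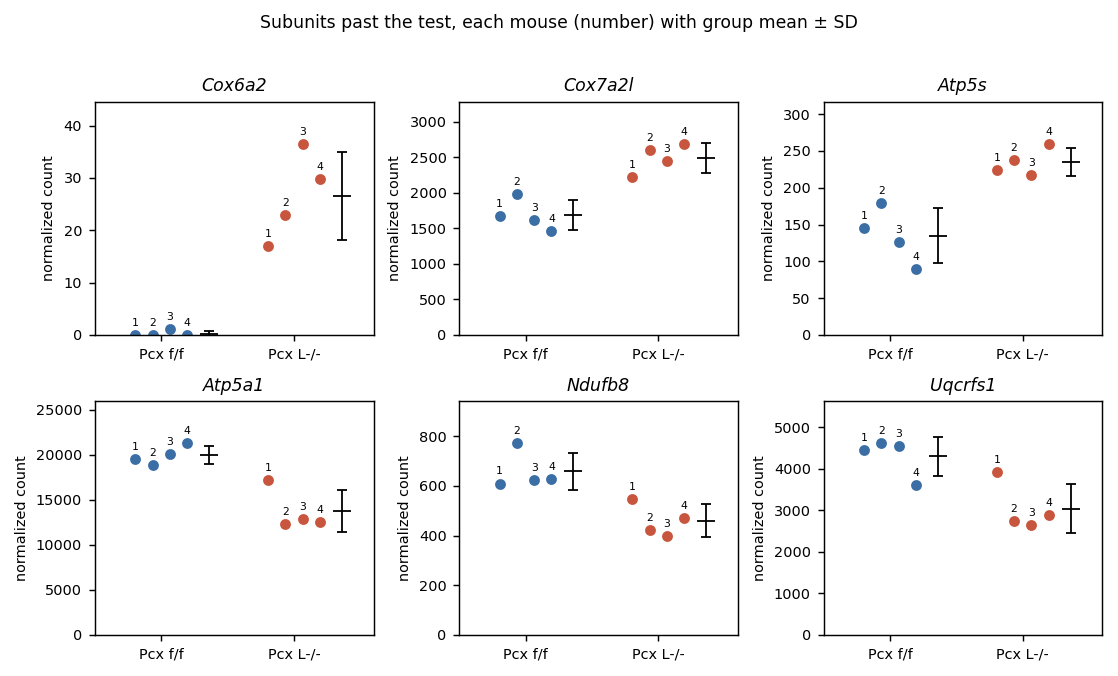
Normalized counts (vertical axis, from 0) of the 6 members past the test in each mouse, with control mice in blue, Pcx L-/- mice in red, replicate numbers above the points, and the group mean ± SD in black (n = 4). Genotypes do not overlap for any but Uqcrfs1, where Pcx L-/- replicate 1 lies above control replicate 4.

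Complex IV held the largest change among members. Cox6a2, at chr7:128205435-128206387 on the minus strand, codes the subunit 6A isoform typical of heart and skeletal muscle, and the liver isoform is Cox6a1. The libraries counted 0, 0, 1 and 0 reads of Cox6a2 in control replicates 1 to 4 and 18, 30, 47 and 30 in Pcx L-/- replicates 1 to 4. All 4 Pcx L-/- mice carried the transcript, and 3 of 4 controls were at 0. Normalized counts were 26.6 ± 8.47 and 0.269 ± 0.537 (SD, n = 4 each), and the gene rose (adjusted p = 0.00042). The fitted log2 fold change of 6.05 (SE 0.66) depends on the prior count. The gene passed the filter on low counts only through the Pcx L-/- libraries and was not tested at a minimum count of 50. Per unit of sequencing depth the 125 reads against 1 read make a 94.9-fold ratio, with a 95% exact interval from 16.7 to 3780 that covers counting error only. A two-sided exact permutation test gave p = 0.0286, the smallest that 4 mice against 4 allow. Groups that do not overlap always give this value, so it repeats the separation and adds no support. Against Cox6a1 the level stayed low. Cox6a2 made up 0.25%, 0.36%, 0.59% and 0.44% of the summed FPKM of the Cox6a pair in the 4 Pcx L-/- livers, and the mean FPKM over all libraries was 1.34 against 570.1.

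The 2 coding sequences are printed to show how the muscle isoform differs from the liver isoform. Both come from GENCODE M21 transcripts, with bases numbered from the first base of the start codon. Aligned over 288 bases they share 180 (62.5%), and the longest run of identical bases is 12. Capitals mark bases that differ between them or face a gap.
Cox6a2, bases 1 to 294 of 294: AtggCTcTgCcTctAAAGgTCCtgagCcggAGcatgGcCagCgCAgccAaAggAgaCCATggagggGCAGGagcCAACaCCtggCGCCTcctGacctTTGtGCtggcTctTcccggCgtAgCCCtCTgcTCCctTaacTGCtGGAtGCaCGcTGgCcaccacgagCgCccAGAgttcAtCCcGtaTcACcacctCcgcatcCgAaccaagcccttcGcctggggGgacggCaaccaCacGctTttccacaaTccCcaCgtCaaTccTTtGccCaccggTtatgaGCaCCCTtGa
Cox6a1, bases 46 to 339 of 339: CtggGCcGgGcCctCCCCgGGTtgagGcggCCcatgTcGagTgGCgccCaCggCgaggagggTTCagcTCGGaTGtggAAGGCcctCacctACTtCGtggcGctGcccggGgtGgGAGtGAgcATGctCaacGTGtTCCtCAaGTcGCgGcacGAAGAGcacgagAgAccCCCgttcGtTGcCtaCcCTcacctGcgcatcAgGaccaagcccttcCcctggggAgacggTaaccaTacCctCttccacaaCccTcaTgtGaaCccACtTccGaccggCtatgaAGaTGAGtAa
Untranslated bases were not compared, and the assignment of reads between the pair was not tested. Cox6a1 did not pass, with 6280, 6024, 6551 and 4168 in control liver and 6437, 5924, 5803 and 6301 in Pcx L-/- liver (log2 fold change 0.09, SE 0.15, adjusted p = 0.708). Cox6a2 lies within the span of Itgad, a leukocyte integrin gene on the other strand, with which it shares 10.3% of its exonic bases. Itgad had 1 read in each genotype. The 8 muscle markers examined, among them Ckm, Mb and Acta1, summed to at most 1.53 normalized counts in a Pcx L-/- library and 7.52 in a control library, with Myh6, Myh1 and Acta1 at 0 in all 8. Ucp1, the marker of brown fat, was at 0 in all 8 as well. The list of 5 fat markers that holds it was not empty. It summed to 543 to 1263 normalized counts in Pcx L-/- liver and 452 to 849 in control liver, which overlapped. Armc5, the nearest called neighbor, was also higher (log2 fold change 0.53, adjusted p = 0.0116).

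The other muscle- or testis-type isoforms of complex IV were low, and none passed in the fit with all libraries. Cox7a1, the heart and muscle isoform of subunit 7A, counted 18.2, 15.2, 15 and 11.9 in control liver and 14.2, 5.34, 19.4 and 7.94 in Pcx L-/- liver (log2 fold change -0.38, SE 0.40, adjusted p = 0.523). Cox6b2, a testis isoform, counted 24.6, 31.4, 36.5 and 10.2 and 40.6, 11.4, 17.1 and 8.93 (log2 fold change -0.44, SE 0.48, adjusted p = 0.538). Both overlapped widely at these depths. With both doubtful libraries left out Cox6b2 passed as lower (-1.26, adjusted p = 0.013). Cox4i2, the lung isoform of subunit 4, was too low for the fit, with 7 reads in control liver and 4 in Pcx L-/- liver (two-sided exact permutation p = 0.0857). Cox8b, the muscle isoform of subunit 8, had 3 reads, all in Pcx L-/- replicate 2. Cox7b2 and Cox8c, testis isoforms, had 0 reads in every library, which allows up to 3 reads per library. Ndufa4l2, a paralog of Ndufa4 known as a hypoxia target, gave 24.6, 30.3, 22.6 and 3.39 and 29.3, 22.9, 24.9 and 18.9 (log2 fold change 0.18, SE 0.41, adjusted p = 0.778).

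The liver isoforms Cox4i1, Cox6a1, Cox6b1 and Cox8a made up at least 98.9% of the summed FPKM of their families in every library. Cox6a1 was the most abundant member of the complex at 570.1 FPKM. Cox4i1 (log2 fold change -0.22, SE 0.12, adjusted p = 0.204), Cox6b1 (0.09), Cox8a (0.09) and Ndufa4 (-0.18) did not pass. With both doubtful libraries left out Cox4i1 (-0.33) and Ndufa4 (-0.40) passed as lower, and so they did with the gene length offset (-0.41 and -0.39). Control replicate 4 counted 1841 for Cox8a where the other 7 libraries lay between 3623 and 4326. Cox7b, a small X-linked subunit, had the lowest log2 fold change of the complex (-0.55), with 2159, 2710, 2374 and 1208 in control liver and 1886, 1198, 1272 and 1410 in Pcx L-/- liver (adjusted p = 0.0923). Controls 1 to 3 exceeded every Pcx L-/- mouse and control replicate 4 lay near the lowest of them. Cox7b passed as lower without control replicate 4 (-0.75) and without Pcx L-/- replicate 1 (-0.71).

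Cox7a2l, a relative of subunit 7A that joins complex III to complex IV in supercomplexes, was the other member of the complex to rise. The C57BL/6 strain is known to carry a shortened form of this protein. It lies at chr17:83501918-83517330 on the minus strand and counted 1677, 1980, 1614 and 1470 in control liver and 2218, 2608, 2447 and 2692 in Pcx L-/- liver. The lowest Pcx L-/- mouse, replicate 1, lay above the highest control, replicate 2. The means were 2491 ± 208 and 1685 ± 215 (SD, n = 4 each), and the difference passed in each of 21 alternatives (log2 fold change 0.56, SE 0.12, adjusted p = 0.00682, with adjusted p from 0.000111 to 0.0281 over them). Cox7a2, the liver isoform itself, had a log2 fold change of 0.31 and did not pass (adjusted p = 0.286). Cox7a2l made up 36.4% to 51.3% of the summed FPKM of its family in control liver and 39.6% to 48.2% in Pcx L-/- liver, so shares overlapped, with the highest in control replicate 4. Of the 16 members of complex IV tested, 2 were higher and 0 lower by edgeR, beside 14.1% and 13.5% of all genes. DESeq2 gave the same counts, beside 13.0% and 13.4%. An unadjusted p under 0.05 gave 2 higher and 1 lower, beside 19.7% and 19.3%. The median log2 fold change of the complex was 0.05. It turned to -0.13 without control replicate 4 and to -0.02 without Pcx L-/- replicate 1.

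ATP synthase is a rotary enzyme whose catalytic head consists of alpha and beta subunits, coded by Atp5a1 and Atp5b, around a gamma shaft, coded by Atp5c1. Atp5a1 counted 19576, 18881, 20131 and 21265 in control liver and 17194, 12356, 12893 and 12547 in Pcx L-/- liver. Every Pcx L-/- mouse lay below every control, with replicate 1 well above the other 3. The means were 13748 ± 2308 and 19963 ± 1007 (SD, n = 4 each), and Atp5a1 fell (log2 fold change -0.54, SE 0.15, adjusted p = 0.0193). The call is lost without control replicate 3 (-0.54, adjusted p = 0.0515) or Pcx L-/- replicate 2, 3 or 4 (-0.49, -0.51 and -0.50, adjusted p = 0.0656, 0.0648 and 0.0756), and when scaled by total reads (-0.26, adjusted p = 0.0721). Its partner Atp5b, the most abundant of all members at 700.3 FPKM, counted 25344, 23701, 26151 and 24199 and 24371, 19865, 19281 and 20350 (log2 fold change -0.25, SE 0.13, adjusted p = 0.202). Pcx L-/- replicates 2 to 4 lay below every control, and replicate 1 lay among them. Atp5b passed as lower without that mouse (-0.33). Atp5c1 did not pass (log2 fold change -0.21, SE 0.14, adjusted p = 0.277), and did with both doubtful libraries left out (-0.38, adjusted p = 0.00506).

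Atp5s, also named Dmac2l, codes a coupling factor B-like protein of ATP synthase and was the member of complex V that rose. It lies at chr12:69724950-69744660 on the plus strand and counted 145, 179.9, 126 and 89.9 in control liver and 225, 238, 218 and 260.0 in Pcx L-/- liver. The lowest Pcx L-/- mouse lay above the highest control (log2 fold change 0.78, SE 0.18, adjusted p = 0.00974), and the difference passed in each of 21 alternatives, with adjusted p from 0.00073 to 0.036. At 7.62 FPKM it was the least abundant member of the complex. Of the 17 members, 1 was higher and 1 lower by edgeR, beside 14.1% and 13.5% of all genes. An unadjusted p under 0.05 gave 1 and 1 as well, beside 19.7% and 19.3%. The median log2 fold change of the complex was -0.15, or 0.11 when scaled by total reads. Atp5e (-0.43), the epsilon subunit of the shaft, and Atp5j2 (-0.33), subunit f of the membrane part, had the next lowest values. Both passed as lower without control replicate 4 (-0.63 and -0.50). Atp5f1, the b subunit of the peripheral stalk, counted 5067, 5311, 5326 and 3898 and 5835, 5180, 4920 and 5532 and did not pass (0.13, adjusted p = 0.502). It passed as higher when scaled by total reads (0.40, adjusted p = 0.042) and in both fits to FPKM, up to 0.42.

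The membrane ring of ATP synthase is built from subunit c, which Atp5g1, Atp5g2 and Atp5g3 code with different import signals but as the same mature protein. Atp5g3 supplied 76.3% to 78.3% of the family's summed FPKM in control liver and 73.9% to 77% in Pcx L-/- liver. Atp5g2 supplied 15.6% to 18.1% and 17.3% to 20.3%, and Atp5g1 5.54% to 6.05% and 5.71% to 5.86%. The makeup of the ring transcripts overlapped between genotypes for all 3 genes. None passed the test, with log2 fold changes of -0.03, 0.09 and -0.08 for Atp5g1, Atp5g2 and Atp5g3. Atp5g3 passed as lower with both doubtful libraries left out (-0.25, adjusted p = 0.0407).

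Counting limits touch some members. Exons of 30 of the 82 overlap another gene's exons by at least 1 base, most in Atp5o (47.9% of its exonic bases), Ndufb6 (39.0%) and Ndufa13 (30%), and 19.5% in Ndufb9. The sources used here do not give the use of strand in counting, and reads of such overlaps cannot be assigned to one gene with certainty. Reads of near-identical processed pseudogenes could also be split.

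The other genes of the respiratory chain are given from lists of whole pathways, with each list's calls beside the 27.6% of all genes called. Complex II, whose 4 subunits are all nuclear, had 1 lower by edgeR. At an unadjusted p under 0.05 it had 3 lower, beside 19.3% of all genes. All 4 log2 fold changes were below 0 (median -0.32), beside 50.6% of all genes. Sdhd, a membrane anchor, counted 3744, 4416, 3879 and 3379 in control liver and 3415, 2272, 2403 and 2440 in Pcx L-/- liver (log2 fold change -0.55, SE 0.15, adjusted p = 0.0201). Pcx L-/- replicate 1 lay just above control replicate 4, and the other 3 lay below every control. The call is lost without control replicate 2 or 3 (adjusted p = 0.0514 and 0.0504) or Pcx L-/- replicate 2, 3 or 4 (0.0668, 0.0653 and 0.0701), and when scaled by total reads (-0.29, adjusted p = 0.116).

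Transcripts of the mitochondrial genome, which code the remaining subunits, gave 4 lower of 12 tested by edgeR, and 8 lower at an unadjusted p under 0.05, which 19.3% of all genes reached. All 12 log2 fold changes were below 0, from -1.19 to -0.26, with a median of -0.46. mt-Nd2 (-0.68, adjusted p = 0.015), mt-Nd4l (-1.19, 0.0283) and mt-Nd5 (-0.58, 0.0358) code complex I subunits, and mt-Atp6 (-0.65, 0.0206) codes subunit a of ATP synthase. mt-Nd4l counted 52.8, 56.35, 47.29 and 140.9 in control replicates 1 to 4, so its value leans on replicate 4, and it reached -0.72 over alternatives. mt-Nd4l and mt-Atp6 (means 379 in Pcx L-/- and 596 in control liver) lay far below mt-Co1 (259425 and 353104). Whether their reads were lost in counting was not tested. The call of mt-Nd2 is lost without Pcx L-/- replicate 3 or 4 (adjusted p = 0.0584 and 0.0639). That of mt-Nd4l is lost without Pcx L-/- replicate 2, 3 or 4 (0.0802, 0.0524 and 0.0818), and that of mt-Atp6 without replicate 4 (0.0694). mt-Nd5 passed in 10 of 21 alternatives and lost its call on leaving out any of control mice 1, 3 and 4 and Pcx L-/- mice 2, 3 and 4 (0.0504 to 0.126). mt-Nd5 and mt-Atp6 also lost the call when scaled by total reads. In both fits to FPKM mt-Nd2, mt-Nd5 and mt-Atp6 lost it. With no filter and with the replicate block mt-Nd5 lost it as well. These 12 transcripts lay opposite to the nuclear members in control replicate 4, where their median lay at 0.48 and that of the nuclear members at -0.38. In Pcx L-/- replicates 1 to 4 their medians lay at 0.03, -0.45, -0.26 and -0.30.

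Factors that assemble the complexes had 10 genes called higher and 1 lower over 5 lists. In complex I assembly 2 of 16 were higher, Ndufaf3 (0.42, adjusted p = 0.0257) and Tmem186 (0.52, 0.028). In complex III assembly 1 of 6 was higher, Uqcc3 (0.57, 0.00921), which acts early in the maturation of cytochrome b. Of 21 complex IV assembly genes tested, 5 were higher and 1 lower. Coa4 (0.68), Cox18 (0.60), which inserts part of subunit 2, Cox19 (0.44), which serves copper delivery, Cox14 (0.39) and Surf1 (0.37) had adjusted p from 0.0208 to 0.049. Lrpprc, which stabilizes mitochondrial mRNAs, was lower (-0.41, adjusted p = 0.048). Tmem70 (0.47, 0.0269) was higher among 4 complex V assembly genes, and Sdhaf2 (0.44, 0.0134) among 4 of complex II. These shares, 12.5% to 28.6% of each list, lay near or below the share over all genes. Uqcc3 and Sdhaf2 passed in each of 21 alternatives. The other 9 each lost the call without Pcx L-/- replicate 2 (adjusted p = 0.0624 to 0.141) and without Pcx L-/- replicate 4 (0.0665 to 0.137). Coa4 passed in 18 of 21 alternatives, Tmem70 in 17, Ndufaf3 and Tmem186 in 16, Cox18 and Cox19 in 14, Surf1 and Cox14 in 12 and Lrpprc in 8. Lrpprc also lost its call when scaled by total reads and in both fits to FPKM.

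Among 16 genes of electron carriers that feed the chain, 2 were higher and 3 lower. Etfa (-0.53, adjusted p = 0.0202) and Etfdh (-0.57, 0.0289), which carry electrons from fatty acid oxidation to ubiquinone, were lower, as was Coq8a (-0.84, 0.00437), a regulator of ubiquinone synthesis. Coq4 (0.97, 0.0044) and Coq3 (0.32, 0.0488), which serve ubiquinone synthesis, were higher. Coq4 and Coq8a passed in each of 21 alternatives. Etfa passed in 14, with losses on leaving out any of control mouse 3 and Pcx L-/- mice 2, 3 and 4 (adjusted p = 0.0561 to 0.0728). Etfdh passed in 12, with losses on leaving out any of control mice 1, 2 and 3 and Pcx L-/- mice 2, 3 and 4 (0.0647 to 0.0941). Etfa and Etfdh also lost the call when scaled by total reads and in both fits to FPKM. Coq3 passed in 5, with losses by DESeq2 and without any 1 of the 8 mice (0.0523 to 0.148). Coq4 counted 81.0, 79.1, 98.9 and 88.2 in control liver and 139, 166, 145 and 233 in Pcx L-/- liver. Cycs, the somatic cytochrome c that links complex III to complex IV, also named after its value was seen, did not pass (0.21, 0.182). The 5 stabilizers of the chain and its supercomplexes had a median log2 fold change of 0.16. Of them 1 was higher at an unadjusted p under 0.05, beside 19.7% of all genes.

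Regulators of respiratory genes gave 1 higher and 1 lower of 13. Esrrg, an estrogen-related receptor, fell with counts of 92.9, 103, 104 and 194 in control liver and 75.5, 34.4, 42.8 and 48.6 in Pcx L-/- liver (log2 fold change -1.28, SE 0.30, adjusted p = 0.00958). Tfb1m, a mitochondrial rRNA methyltransferase, rose (log2 fold change 0.78, SE 0.13, adjusted p = 0.00187). Other regulators of these genes, named after their values were seen, did not pass, among them Esrra (-0.43, adjusted p = 0.0648), Nrf1 (-0.09, 0.595), Gabpa (-0.19, 0.156) and Ppargc1a (-0.49, 0.168). Ppargc1a codes the coactivator PGC-1alpha that fasting induces, and its highest count was in control replicate 4 (950 against 352 to 540 in the other controls and 361 to 438 in Pcx L-/- liver). Of 8 genes often used to gauge mitochondrial amount, 4 rose. They were Cs, coding citrate synthase (log2 fold change 1.28, SE 0.18, adjusted p = 0.000999), the porin Vdac3 (0.76) and the import subunits Timm23 (0.65) and Tomm20 (0.41), the last of which lost its call without control replicate 3 (adjusted p = 0.0579) or Pcx L-/- replicate 4 (0.0622). Citrate synthase consumes the oxaloacetate that pyruvate carboxylase makes.

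**Figure D5:**
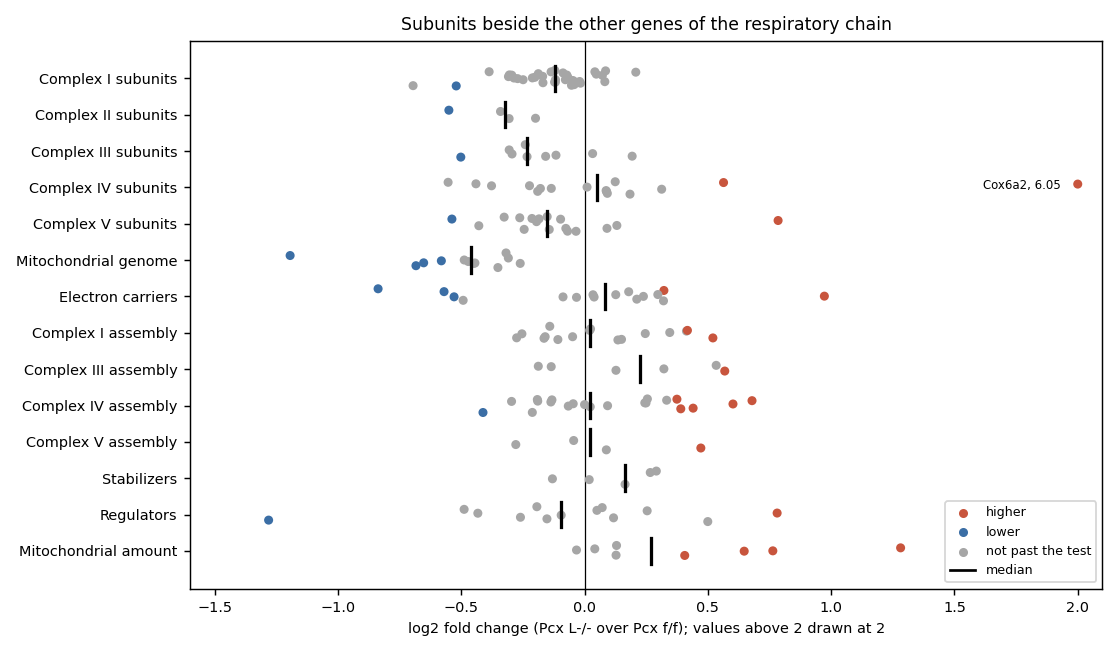
Log2 fold change (horizontal axis) of the genes tested in each group (rows), with red for genes called higher, blue for those called lower, grey for the rest and a black bar at the median. The medians of complexes I, III and V lie below 0 here, at -0.12, -0.23 and -0.15, and above 0 when libraries are scaled by total reads.

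Ribosomal protein genes give a comparison with other short, highly expressed genes. With TMM factors and all libraries, 69 of 76 cytosolic ribosomal protein genes tested were higher, beside 14.1% of all genes, with a median log2 fold change of 0.78. In the same fit 29 of 76 mitochondrial ribosomal protein genes were higher, with a median of 0.21. The nuclear OXPHOS subunits, at -0.12, lay between these and the transcripts of the mitochondrial genome at -0.46. The median length of members tested was 944 bases and that of cytosolic ribosomal protein genes 929, and both classes were low in control replicate 4, where ribosomal protein genes lay at -0.80. The differences between these medians were not tested.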

How the data were processed

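Liver RNA libraries of 4 Pcx L-/- and 4 Pcx f/f mice were compared. The authors aligned reads to mm10 (GRCm38) and deposited counts per gene with FPKM values. STAR 2.5, HTSeq 0.6.1 and DESeq2 are named in the submitters' processing notes, while annotation release and strand use were not given in the sources used here. Deposited FPKM values equaled count over length and total reads, so they carry no correction for composition. The counts were fitted with edgeR 4.0.16 in R 4.3.3: genes were kept by filterByExpr (minimum count 10), scaled by TMM and tested by the quasi-likelihood F test with Benjamini-Hochberg adjustment over 13168 genes, at an adjusted p of 0.05. Adjusted p-values in the text come from this fit unless another tool is named. Normalized counts are per effective library size. The fit was tested on simulated data. The 4 members too low for the filter were given as reads, with a two-sided exact permutation test. Intervals on read ratios cover counting error only, since PCR reads are not independent molecules.

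Gene positions are those of GENCODE M21, in which 34490 of 35275 Ensembl gene IDs matched. Members and lists were chosen with earlier results of these data known. Named were members past the test, the 3 highest and 3 lowest and the most abundant of each complex, core subunits, isoform families, members too low for the filter, and list genes past the test. The values of 1 member are not reported here, though it stays in all counts and medians. Promoters came from RefSeq, and the Cox6a sequences were aligned with Biopython 1.88. Alternatives were other scaling factors and filters, DESeq2 1.42.0 with and without apeglm 1.24.0, limma 3.58.1 on log2(FPKM + 1) and log2(FPKM + 0.1), a replicate block, a covariate for the mouse number series, and each mouse left out. A gene length offset and leaving out 2 libraries together were added after the data were seen.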

Additional observations from a re-analysis of the deposited data

Results flagged for a closer look

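Within a genotype, 11 of 91 groups of 4 values held a library far from the other 3 by Dixon's test at the 95% level, where chance gives about 1 in 20. Of the 11, 7 were control replicate 4. That library gave 0.794% of its reads to OXPHOS subunits against 1.11% to 1.17% in the other controls. Its normalized count was 592 for Ndufa1 (others 1050 to 1132), 755 for Ndufa7 (1239 to 1284) and 665 for Ndufs8 (864 to 891). It was 3104 for Cyc1 (3898 to 4052), 3606 for Uqcrfs1 (4457 to 4611) and 1841 for Cox8a (4012 to 4326). All 7 were low. In 2 of the 11 groups, those of Cox6a2 and Cox8b, 3 values were 0 and 1 was not, which fixes Dixon's ratio, so that they carry no weight in the tally.

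The other 4 were high. Ndufb8 counted 772 in control replicate 2 (others 609.9 to 629.6). Atp5a1 counted 17190 in Pcx L-/- replicate 1 (others 12360 to 12890). Cox6a2 counted 1.07 in control replicate 3 and Cox8b 2.29 in Pcx L-/- replicate 2, where the other 3 libraries of the genotype had 0.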

How the results depend on the processing

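The 3 subunits called higher stayed between 2 and 4 in number under 21 alternatives, while the number called lower (3) and the direction of the medians moved. With total reads as the scale, 3915 genes were higher and 870 lower, against 1855 and 1777 with TMM, and 0 subunits were lower. The median log2 fold change was then 0.28 over all genes, 0.14 over subunits, 0.15 for complex I, 0.0253 for complex III and 0.11 for complex V. On log2(FPKM + 1), whose scale is also total reads, 3822 genes were higher and 823 lower, with 0 subunits lower. The medians were 0.18 over all genes, 0.17 over subunits, 0.17 for complex I, 0.0764 for complex III and 0.17 for complex V. On log2(FPKM + 0.1), 3779 genes were higher and 822 lower, with 0 subunits lower. The medians were 0.27 over all genes, 0.17 over subunits, 0.17 for complex I, 0.0772 for complex III and 0.18 for complex V. DESeq2 called 6 subunits lower with its Wald test and 6 with apeglm.

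With 1 mouse left out in turn, between 1156 and 2232 genes were higher, between 953 and 2370 lower, and between 1 and 14 subunits lower. The complex IV median ran from -0.13 (without control replicate 4) through -0.02 (without Pcx L-/- replicate 1) to 0.11. The gene length offset gave 30 lower subunits and a complex IV median of -0.13. Leaving out both doubtful libraries gave 46 and -0.19. With the mouse number series as a covariate, which is unbalanced between genotypes, 3 subunits were higher and 3 lower, and the median was -0.05 over subunits, -0.05 for complex I, -0.13 for complex III and -0.09 for complex V. Cox6a2, Cox7a2l and Atp5s passed wherever they were tested. The cause of these differences was not tested.

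The replicate numbers did not pair the mice, with correlations of deviations between same-numbered libraries from -0.131 to 0.101. With the numbers as a block, 1481 genes were higher and 1494 lower, 3 subunits were higher and 3 lower, and the subunits' median was -0.12. Depth limits the isoforms with few reads, where changes of Cox4i2, Cox7b2, Cox8b and Cox8c were not detectable.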
